A study of Mus musculus with 17 samples.

Results

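Testicular macrophages and MHC class II molecules were followed through 10 genes, *Lyz2*, *Cd74*, *H2-Aa*, *H2-Ab1*, *H2-Eb1*, *Csf1r*, *C1qa*, *C1qb*, *C1qc* and *Mrc1*, which were chosen by name from the 23282 gene symbols of the deposited table. All 10 symbols were listed in it. The choice was made with earlier results of these data known, so counts of the 10 beside those of all genes are a description. RNA was measured by Smart-seq2 in 17 bulk libraries of sorted mouse spermatogenic cells: spermatogonia (SPG, 3 WT and 3 SKO libraries), pre-leptotene spermatocytes (PreL, 3 WT and 3 SKO) and spermatocytes of the leptotene and zygotene stages (LZ, 2 WT and 3 SKO). SKO animals were *Nat10* fl/-;*Stra8*-Cre, in which a Cre knocked in at *Stra8* removes part of *Nat10*, which encodes an RNA cytidine acetyltransferase, from germ cells that approach meiosis. *Stra8* is a germ cell gene, so macrophages were not the target of the Cre. The fl/- genotype also writes the other *Nat10* allele as deleted whether or not Cre is present. Macrophages of SKO animals may thus carry that allele, which cannot be told apart here from the deletion in germ cells. The controls are given only as wildtype, both genotypes were of the C57BL/6J background (C57BL/6 in the labels), and the age of the mice behind the RNA-seq libraries is not given in the sources used here.

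The described sort used Hoechst and propidium iodide fluorescence after enzymatic digestion of the testis. It names LZ and later cells, and the gates for SPG and PreL are not given. No leukocyte marker was part of the described sort. The paper judged purity by immunofluorescence. Most cells of its PreL and LZ sorts were of the named stage, with a small part counted as others, more in LZ than in PreL. No purity of SPG is listed. Tissue macrophages lie in the testis interstitium around Leydig cells and on the wall of the seminiferous tubules, and the healthy tubule interior holds few leukocytes. Their survival depends on CSF1R, the receptor of the cytokines CSF1 and IL-34. MHC class II molecules are αβ heterodimers that present peptides to CD4 T cells: *H2-Aa* and *H2-Ab1* encode the α and β chains of I-A, *H2-Eb1* encodes the β chain of I-E, whose α chain is not made in the C57BL/6 haplotype, and *Cd74* encodes the invariant chain that escorts the heterodimer to the endosome. *C1qa*, *C1qb* and *C1qc* encode the chains of C1q, the recognition subunit of the classical complement pathway, which tissue macrophages secrete. *Lyz2* encodes a lysozyme of myeloid cells, and *Mrc1* encodes the mannose receptor CD206 of resident macrophages.

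Promoters of 6 of the genes were taken from RefSeq (GRCm38.p6, 250 bases before to 50 bases after the start) and are shown because all 6 of these genes rose in SKO SPG, as described further on. For the pair of class II genes the 250 bases before the start are printed 5′ to 3′ on the gene's strand, *H2-Aa* at chr17:34287824-34288073 (minus strand) and *H2-Eb1* at chr17:34305617-34305866 (plus strand). Capitals mark the Y box letters CTGATTGG, held by 4.10% of 32851 RefSeq promoters of the same length, and the palindrome TGACGTCA, held by 1.79%, each searched on both strands.
H2-Aa: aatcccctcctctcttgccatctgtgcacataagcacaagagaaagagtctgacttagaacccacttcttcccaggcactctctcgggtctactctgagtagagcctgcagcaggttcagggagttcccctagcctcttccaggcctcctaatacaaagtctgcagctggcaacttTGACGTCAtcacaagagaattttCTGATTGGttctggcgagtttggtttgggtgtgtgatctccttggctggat
H2-Eb1: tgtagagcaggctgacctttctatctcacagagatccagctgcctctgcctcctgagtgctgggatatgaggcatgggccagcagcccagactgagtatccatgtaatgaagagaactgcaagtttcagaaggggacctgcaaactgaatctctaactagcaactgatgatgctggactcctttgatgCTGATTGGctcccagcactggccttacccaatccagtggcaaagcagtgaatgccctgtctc
The remaining 4 promoters each hold the letters ACTTCCT, a core that the myeloid factor PU.1 and other ETS proteins can bind and that 9.35% of all promoters hold on either strand. The match is printed in capitals with 30 bases on each side, for *C1qb* at chr4:136886217-136886283, *C1qc* at chr4:136893073-136893139 and *Lyz2* at chr10:117282336-117282402, all on the minus strand, and for *Mrc1* at chr2:14229173-14229239 on the plus strand.
C1qb: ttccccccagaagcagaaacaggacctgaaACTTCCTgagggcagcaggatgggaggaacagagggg
C1qc: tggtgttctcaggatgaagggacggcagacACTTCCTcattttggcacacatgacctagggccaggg
Lyz2: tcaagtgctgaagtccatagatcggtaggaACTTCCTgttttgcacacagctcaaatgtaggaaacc
Mrc1: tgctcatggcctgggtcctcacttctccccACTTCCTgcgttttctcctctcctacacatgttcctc
A match describes the letters only, and no binding was measured.

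In the GRCm38 annotation the C1q genes lie side by side on chromosome 4, *C1qb* at 136880129 to 136886187, *C1qc* at 136889804 to 136893065 and *C1qa* at 136895917 to 136898803, all on the minus strand. The class II genes lie together on chromosome 17, *H2-Ab1* at 34257689 to 34269419 on the plus strand, *H2-Aa* at 34282744 to 34287823 on the minus strand and *H2-Eb1* at 34305867 to 34316674 on the plus strand. *Lyz2* lies on chromosome 10 at 117277331 to 117282321, *Mrc1* on chromosome 2 at 14229392 to 14332057, and *Cd74* and *Csf1r* on chromosome 18 at 60803848 to 60812652 and 61100598 to 61132149. Values are for whole genes, so exons and untranslated regions were not separated. An exon of *Csf1r* overlaps *Hmgxb3* on the other strand, and the sources used here do not say that reads were counted by strand, so reads there cannot be told apart. *Cd74* overlaps only the microRNA gene *Mir5107*.

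The libraries held between 5812380 and 13820953 reads assigned to genes, with the 3 SKO LZ libraries the shallowest at 5812380 to 7609420. *Nat10*, the targeted gene, was lower in SKO than in WT at every stage, with 14.7 to 22.6 RPM (reads of the gene per 1000000 reads of the library) in SKO SPG against 30.2 to 37.2 in WT SPG, 10.1 to 15.0 against 23.1 to 36.4 in PreL, and 6.83 to 8.81 against 28.1 and 28.6 in LZ. Spermatid marker genes summed to 0.10 to 4.61 RPM in every SKO library and to 89.8 to 916 RPM in the WT libraries. The germ cell markers *Ddx4*, *Dazl*, *Mael*, *Tex101* and *Sycp3* summed to 3865 to 8876 RPM in all 17 libraries. The third SKO PreL library stood apart from the other two in its somatic genes, with 40.4 RPM of Leydig cell markers against 271 and 459, and the PreL values of the 10 genes and the PreL counts of gene lists are given with and without it.

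The 10 genes together were most abundant in SKO SPG and SKO PreL libraries. Their summed level was 15.8, 13.5 and 23.9 RPM in the WT SPG libraries and 266, 223 and 210 RPM in the SKO SPG libraries. In PreL it was 37.1, 39.5 and 65.5 RPM in WT and 172, 187 and 76.2 RPM in SKO, the lowest value being that of the third library. In LZ the sums overlapped, with 42.8 and 34.2 RPM in WT and 24.1, 69.7 and 51.1 RPM in SKO. SKO SPG had the highest mean of all 6 groups for each of the 10 genes and SKO PreL the second highest. In bulk libraries such as these, fewer cells of a type and less RNA per cell cannot be told apart.

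**Figure D1:**
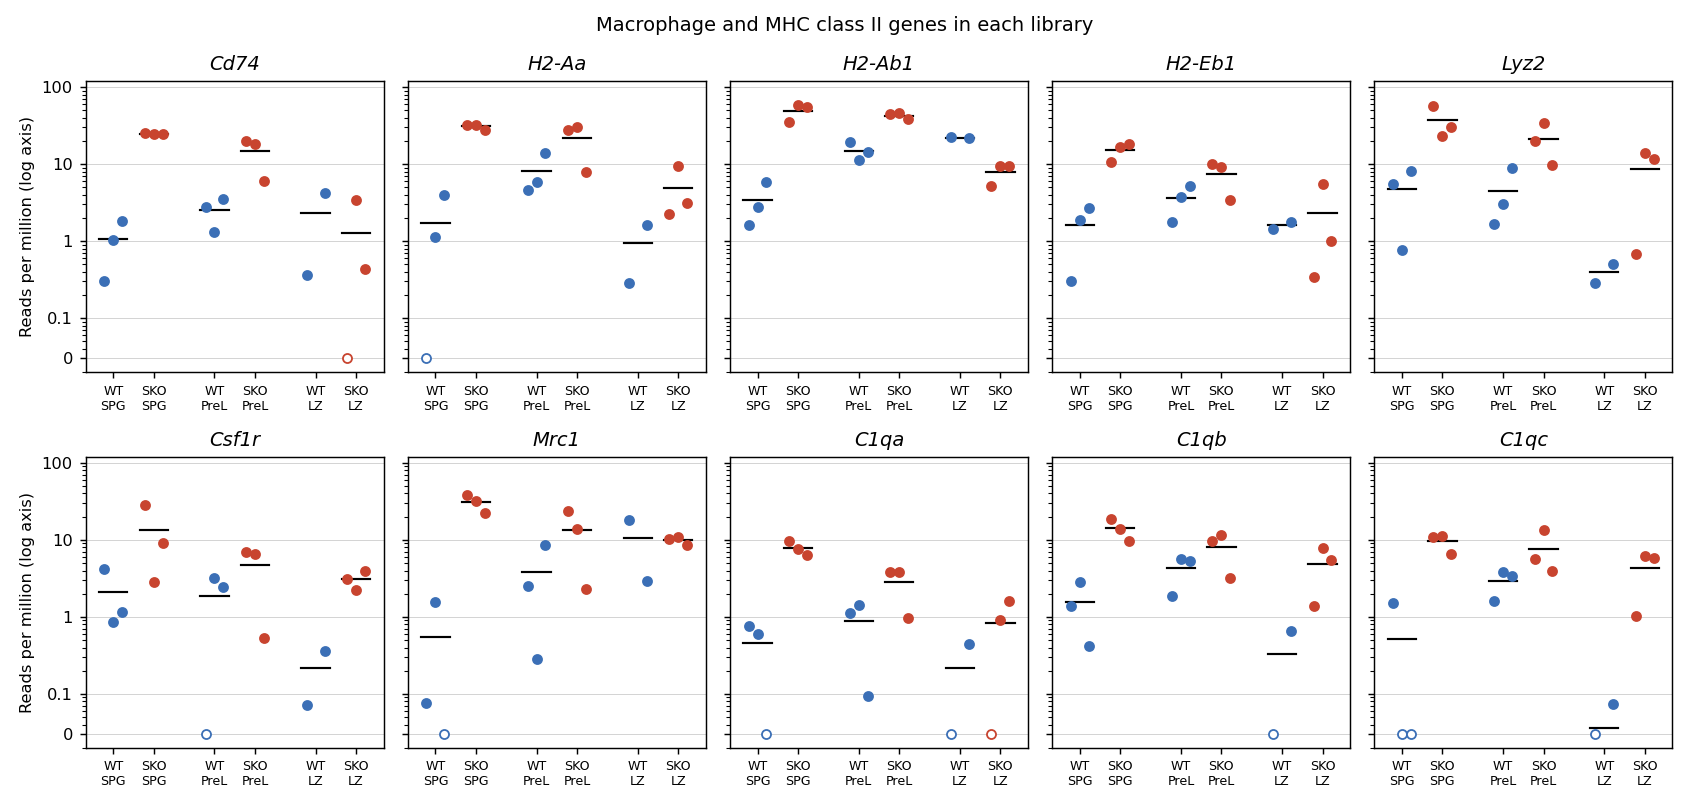
RPM of each of the 10 genes in each of the 17 libraries, on a log axis, with 1 panel per gene, WT and SKO libraries of SPG, PreL and LZ side by side, bars at the group means and libraries without a read as open circles at the bottom. SKO SPG libraries sit above WT SPG libraries in 9 of 10 panels, and in LZ *H2-Ab1* is the gene whose SKO libraries all sit below the WT libraries.

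In SPG, 9 of the 10 genes rose in SKO, called in limma at an adjusted p under 0.05 and a log2 fold change beyond 1 in either direction, where 3.95% of the 12846 genes tested were called higher and 2.06% lower. The exception was *Csf1r*, and the same 9 genes did not overlap between the genotypes, against 15.2% of all genes with SKO above WT and 14.4% below. All 10 genes passed the filter of a mean of 10 reads, but *C1qa*, *C1qc* and *Mrc1* passed it only through their SKO libraries. These 3 genes were tested because SKO was high, so they add no evidence to the counts or to the median. The genes that passed in both genotypes were all called higher except *Csf1r*. The median log2 fold change was 3.08 over the 10 genes and 0.001 over all genes tested. With the ERCC-calibrated values as deposited, not rescaled between libraries, the same number of the 10 was called, while over all genes 508 higher and 265 lower calls became 399 and 578.

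Among the class II genes in SPG, *Cd74* had 4, 12 and 22 reads in WT and 271, 242 and 297 reads in SKO. The SKO libraries agreed closely, at 24.8 ± 0.307 RPM (SD, n = 3) against 1.06 ± 0.761 in WT (n = 3). The log2 fold change was 3.88 ± 0.44 (SE, adjusted p = 0.000202). *H2-Ab1*, the I-A β chain, had 21, 32 and 70 reads in WT and 379, 575 and 651 reads in SKO. The groups were far apart, and the gene rose by 3.66 ± 0.40 on the log2 scale (adjusted p = 0.00016). *H2-Aa*, its α chain, had 0, 13 and 48 reads in WT and 348, 321 and 334 in SKO. One WT library thus had no read of the α chain while it had 21 of the β chain. *H2-Aa* rose by 4.02 ± 0.55 (adjusted p = 0.000674). *H2-Eb1* had 4, 22 and 32 reads in WT and 115, 166 and 218 in SKO and rose by 2.84 ± 0.51 (adjusted p = 0.00354). Each of the 4 genes was lowest in the first WT library, and none overlapped between the genotypes.

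The macrophage receptors and secreted proteins moved the same way in SPG. *Mrc1* had 1, 18 and 0 reads in WT and 414, 318 and 262 in SKO, and its log2 fold change of 4.72 ± 0.51 (adjusted p = 0.00016) was the highest of the 10. The C1q chains had 0 to 33 reads in WT and 75 to 202 in SKO, with no overlap for any of the 3 chains. *C1qb* rose by 2.76 ± 0.51 (adjusted p = 0.0042), *C1qa* by 2.84 ± 0.51 (adjusted p = 0.00355) and *C1qc* by 3.18 ± 0.56 (adjusted p = 0.00322). The *C1qc* call was lost in edgeR (adjusted p = 0.054) and DESeq2 (adjusted p = 0.15). *Lyz2* had 73, 9 and 97 reads in WT and 618, 232 and 362 in SKO, which gave 4.81 ± 3.71 RPM (SD, n = 3) and 37.0 ± 17.8 RPM (n = 3). It rose by 2.98 ± 0.55 (adjusted p = 0.00416). *Lyz1*, a neighbour that shares 15.4% of the 50-base windows of the *Lyz2* transcript, rose too, by 2.78 ± 0.49 (adjusted p = 0.00335), and with the reads of both genes added the log2 fold change was 3.10 (adjusted p = 0.00195), with 2.05 in PreL (adjusted p = 0.0377) and 3.89 in LZ (adjusted p = 0.011).

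*Csf1r* was the most variable of the genes in SKO SPG. It had 55, 10 and 14 reads in WT and 306, 28 and 109 in SKO, so the second SKO library (replicate 3) lay between the WT libraries. The log2 fold change was 2.01 ± 0.68 (adjusted p = 0.0753). Without SKO replicate 3 it was 2.76 (adjusted p = 0.0239), and in DESeq2 the gene passed with all libraries (adjusted p = 0.00695).

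In PreL, 3 of the 10 genes rose in SKO, *Cd74*, *H2-Ab1* and *Lyz2*, and none fell. Of the 13132 genes tested, 5.32% were called higher and 5.83% lower. The 3 genes and *C1qc* did not overlap between the genotypes, against 17.4% of all genes above and 20% below. All 10 fold changes were positive, with a median of 1.26 on the log2 scale against 0.037 over all genes. All 10 passed the filter, *C1qa* only through its SKO libraries, so its sign adds no evidence. Without rescaling, 8 of the 10 were called higher, in a comparison where 699 higher and 765 lower calls over all genes became 3459 and 585.

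*H2-Ab1* was the steadiest of these genes in PreL. It had 205, 118 and 153 reads in WT and 497, 520 and 428 in SKO, that is 14.9 ± 4.02 RPM (SD, n = 3) against 42.8 ± 4.26 RPM (n = 3). It rose by 1.46 ± 0.21 (adjusted p = 0.0022), and by 1.49 without the third SKO library. *Cd74* had 30, 14 and 38 reads in WT and 225, 204 and 68 in SKO. The third SKO library was nearer to WT than to the other SKO libraries, yet above all WT libraries. *Cd74* rose by 2.16 ± 0.48 (adjusted p = 0.0158), and by 2.63 without that library. Its call was lost without WT replicate 2 (adjusted p = 0.0614), SKO replicate 1 (0.078) or SKO replicate 2 (0.0633). *Lyz2* had 18, 32 and 95 reads in WT and 223, 380 and 110 in SKO. It rose by 2.14 ± 0.57 (adjusted p = 0.0318), and by 2.54 without the third SKO library. The call held in 11 of 18 alternatives and was lost in edgeR (adjusted p = 0.0542) and without WT replicate 1 (0.0871), WT replicate 2 (0.109), SKO replicate 1 (0.0955) or SKO replicate 2 (0.11), among others.

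The remaining PreL genes did not pass, and the third SKO library was the lowest of the SKO libraries for each of them. *H2-Aa* had 49, 62 and 148 reads in WT and 313, 343 and 90 in SKO (log2 fold change 1.27 ± 0.53, adjusted p = 0.126), and without the third SKO library it passed at 1.82 (adjusted p = 0.024). *Mrc1* had 27, 3 and 92 reads in WT and 270, 158 and 26 in SKO (1.78 ± 0.94, adjusted p = 0.219). The third SKO library lay among the WT libraries, and without it the value was 2.64 (adjusted p = 0.0676). *C1qc* had 17, 41 and 36 reads in WT and 64, 150 and 45 in SKO, without overlap, at 1.08 ± 0.48 (adjusted p = 0.146), and 1.38 without the third SKO library. *H2-Eb1*, *C1qa*, *C1qb* and *Csf1r* had log2 fold changes between 0.74 and 1.25, with adjusted p between 0.183 and 0.469. Without the third SKO library they lay between 1.22 and 1.90, and none passed.

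In LZ the genes split. *C1qb*, *C1qc*, *Csf1r*, *H2-Aa* and *Lyz2* rose in SKO, *H2-Ab1* fell, and *Cd74*, *H2-Eb1* and *Mrc1* did not pass. Of the 13724 genes tested, 13.4% were called higher and 25.8% lower. With values scaled to RPM, 5 of the 10 were again higher, while 1838 higher and 3534 lower calls over all genes became 1130 and 4471. *C1qa* had 0 and 6 reads in WT and 0, 7 and 11 in SKO and was not tested. *Lyz2*, *Csf1r*, *C1qb* and *C1qc* passed the read filter only through their SKO libraries, so their number is not evidence about the group. The 5 genes called higher had every SKO library above every WT library in rescaled values, as did 30.3% of all genes, and nothing is read from that count for the same reason.

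The values behind the higher calls in LZ were small. *C1qc* had 0 and 1 reads in WT and 6, 47 and 40 in SKO. The ratio of the summed RPM was 126, with an exact 95% interval of 22.0 to 5014 that covers counting error only, and the fitted log2 fold change was 4.19 ± 0.73 (adjusted p = 0.00247). *C1qb* had 0 and 9 reads in WT and 8, 59 and 38 in SKO. Its first SKO library overlapped the WT libraries in reads but not in RPM, because that library was shallower. *C1qb* rose by 3.54 ± 0.84 (adjusted p = 0.0101). *Csf1r* had 1 and 5 reads in WT and 18, 17 and 27 in SKO, with a log2 fold change of 3.29 ± 0.54 (adjusted p = 0.00186) that passed in 16 of 16 alternatives. *Lyz2* had 4 and 7 reads in WT and 4, 105 and 81 in SKO, so the first SKO library had as few reads as WT. *Lyz2* rose by 3.46 ± 1.11 (adjusted p = 0.0335) and *Lyz1* by 3.64 ± 0.72 (adjusted p = 0.00441). *H2-Aa* had 4 and 22 reads in WT and 13, 72 and 22 in SKO (2.49 ± 0.78, adjusted p = 0.0301). Without the first WT library (replicate 2) the *H2-Aa* value was 1.39 (adjusted p = 0.258), that of *Lyz2* 3.04 (adjusted p = 0.27), that of *C1qb* 2.42 (adjusted p = 0.139) and that of *C1qc* 3.92 (adjusted p = 0.0654), and 2 of the 10 genes were called higher. Without the other WT library (replicate 3) 2 were called higher too, with *C1qc* (adjusted p = 0.0628), *H2-Aa* (0.0553) and *Lyz2* (0.21) lost, and without SKO replicate 2 *H2-Aa* (0.0911) and *Lyz2* (0.098) were lost, as was *Lyz2* without SKO replicate 3 (0.0844).

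*H2-Ab1* went the other way in LZ. It had 307 and 295 reads in WT, 21.9 ± 0.444 RPM (SD, n = 2), and 30, 71 and 65 reads in SKO, 7.96 ± 2.42 RPM (n = 3). The groups were apart, as in 39.8% of all genes tested. The log2 fold change was -1.12 ± 0.32 (adjusted p = 0.023). The call was lost when WT replicate 2 (adjusted p = 0.0662), WT replicate 3 (0.15), SKO replicate 1 (0.0643) or SKO replicate 2 (0.0537) was left out, with values between -0.89 and -1.33. *Cd74* had 5 and 58 reads in WT and 0, 26 and 3 in SKO (-0.88 ± 1.35, adjusted p = 0.611), *H2-Eb1* had 20 and 24 reads in WT and 2, 42 and 7 in SKO (0.09 ± 0.89, adjusted p = 0.937), and *Mrc1* had 250 and 40 reads in WT and 59, 84 and 60 in SKO (0.79 ± 0.59, adjusted p = 0.293). These 3 genes varied more within a genotype than between genotypes, and the direction of each turned under at least 1 alternative.

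**Figure D2:**
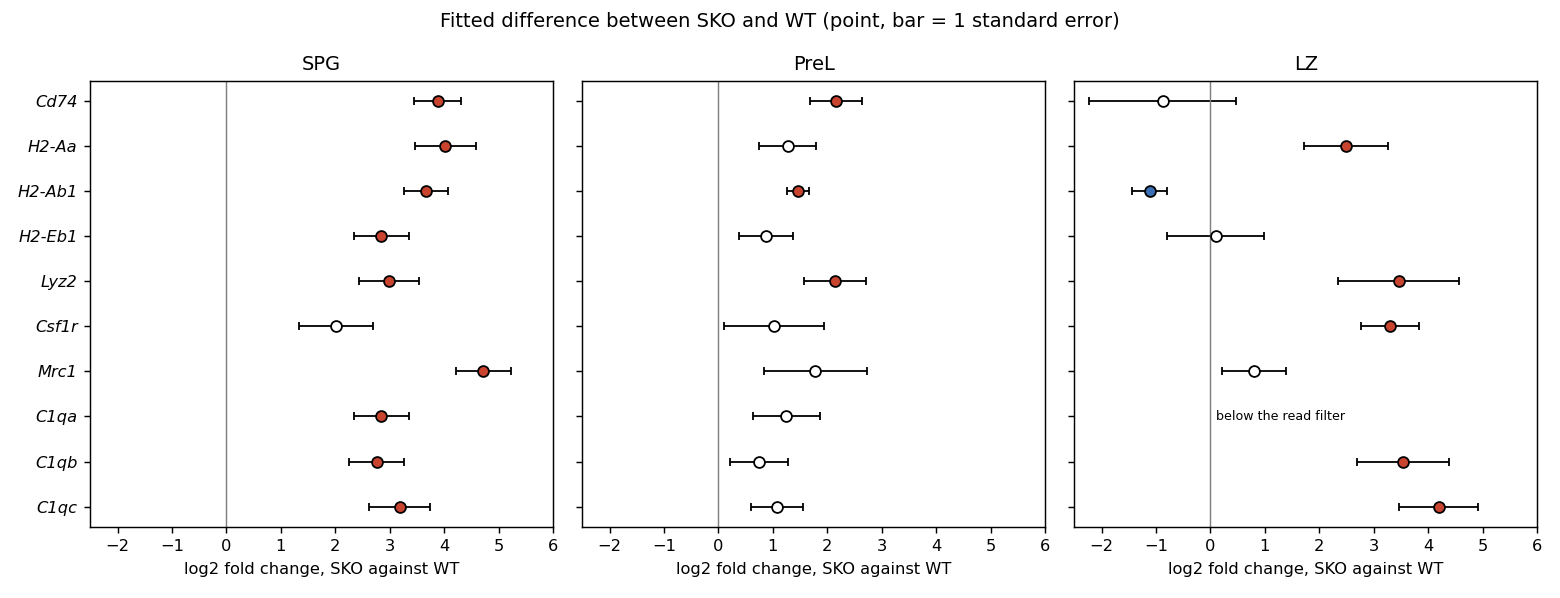
Log2 fold change of SKO against WT with 1 standard error for each of the 10 genes, in SPG, PreL and LZ panels; red points were called higher, blue points lower and white points were not called, and *C1qa* in LZ is below the read filter. In SPG 9 points are red, in PreL 3, and in LZ 5 are red and *H2-Ab1* at -1.12 is blue.

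The chains of I-A did not keep a fixed ratio across the libraries. In WT LZ there were 76.8 and 13.4 reads of *H2-Ab1* for each read of *H2-Aa*, and in SKO LZ 2.31, 0.986 and 2.95. SKO SPG libraries had 1.09, 1.79 and 1.95, and WT SPG libraries with a read of *H2-Aa* had 2.46 and 1.46. The ratio was 4.18, 1.90 and 1.03 in WT PreL and 1.59, 1.52 and 4.76 in SKO PreL, the highest SKO value being that of the third library. Both WT LZ libraries lay above all other libraries with a read of *H2-Aa* in this ratio. *H2-Ab1* made up 51.9% and 63.2% of the reads of the 10 genes in WT LZ, against 13.4% to 21.4% in SKO LZ. Shares about as high were found in the first WT PreL library (51.6%) and the third SKO PreL library (49.9%). The other large share in WT LZ was that of *Mrc1*, at 42.3% in the first library and 8.57% in the second.

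**Figure D3:**
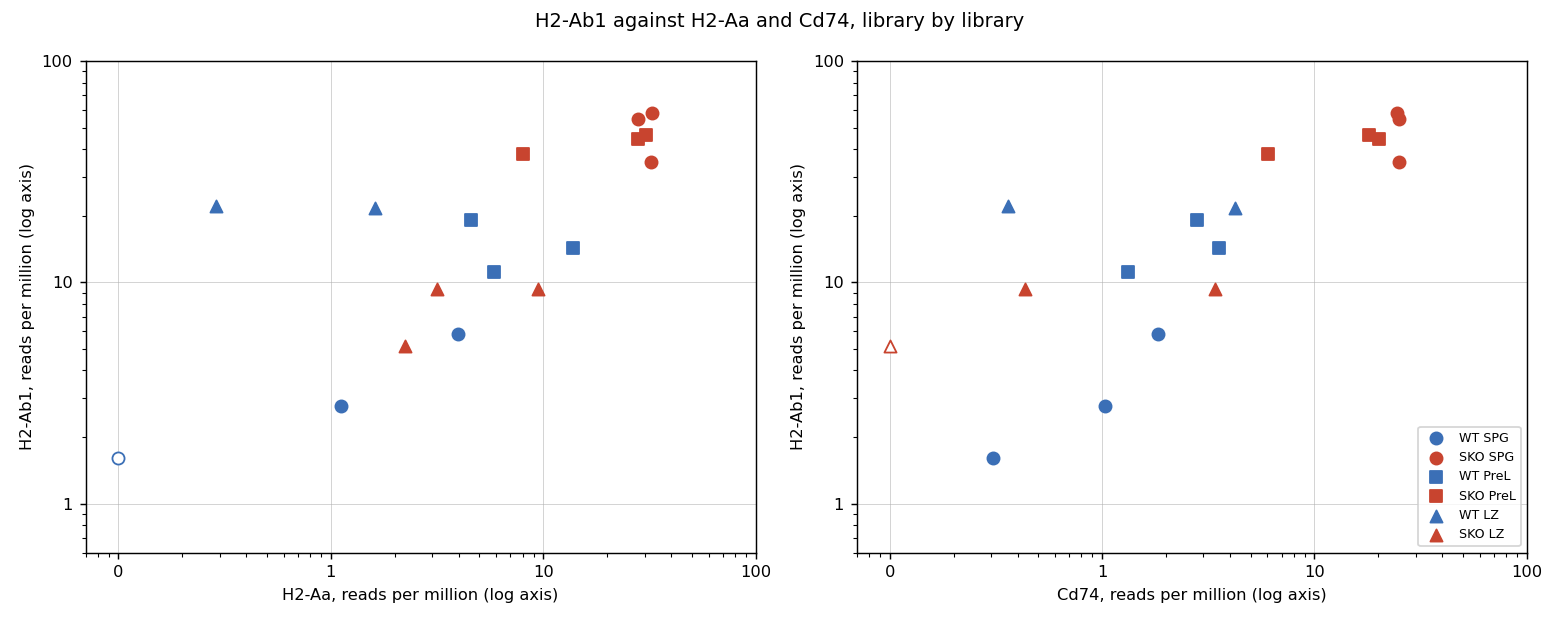
RPM of *H2-Ab1* (vertical axis) against *H2-Aa* and against *Cd74* (horizontal axes) in the 17 libraries, on log axes, coloured by genotype and marked by stage, with libraries without a read of the gene on the horizontal axis as open symbols at 0. The WT LZ libraries stand at about 21.9 RPM of *H2-Ab1* with less than 2 RPM of *H2-Aa*, away from the SKO SPG libraries, where both genes are high.

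Between stages in WT, *H2-Ab1*, *H2-Aa* and *C1qc* rose from SPG to PreL, where 3.57% of 13530 genes were called higher and 1.76% lower. *H2-Ab1* went from 3.40 ± 2.17 to 14.9 ± 4.02 RPM (log2 fold change 2.17 ± 0.34, adjusted p = 0.000963), a call that held in 28 of 28 alternatives. *H2-Aa* (2.41 ± 0.70, adjusted p = 0.035) and *C1qc* (2.17 ± 0.63, adjusted p = 0.0351) were nearer to the threshold. From PreL to LZ in WT, *C1qb* (-2.57 ± 0.71, adjusted p = 0.00679), *C1qc* (-2.73 ± 0.71, adjusted p = 0.00436) and *H2-Aa* (-2.61 ± 0.79, adjusted p = 0.0114) fell, with 22.3% of genes called higher and 6.65% lower, while *H2-Ab1* was at 0.56 ± 0.38 (adjusted p = 0.244). The difference between the chains was not tested. Without rescaling, 3013 higher and 900 lower calls over all genes at this step became 10784 and 22, and 2 of the 10 genes were called higher.

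In SKO, no gene of the 10 was called between SPG and PreL by limma, edgeR or DESeq2, with 1 of 10 at an unadjusted p under 0.05 in limma and 0 in both others. All 10 fold changes were negative, while 3.06% of all genes were called higher and 0.939% lower. *H2-Ab1* was at -0.18 ± 0.34 (adjusted p = 0.808), and at -0.15 without the third SKO PreL library. From PreL to LZ in SKO, *H2-Ab1* fell from 42.8 ± 4.26 to 7.96 ± 2.42 RPM (-1.98 ± 0.34, adjusted p = 0.000202) and *Cd74* from 14.7 ± 7.59 to 1.28 ± 1.86 RPM (-3.34 ± 0.75, adjusted p = 0.00235), where 8.22% of genes were called higher and 5.05% lower. Both calls held in 28 of 28 alternatives, and without the third SKO PreL library the values were -2.01 and -3.82, with 3 of the 10 genes called lower. Over all genes, 414 higher and 127 lower calls from SPG to PreL in SKO became 6049 and 28 without rescaling, and 1112 and 683 from PreL to LZ became 4394 and 170, or 748 and 1965 with values scaled to RPM.

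The genotype effect on *H2-Ab1* differed between stages. An interaction term over all 17 libraries put the difference of the LZ effect from the PreL effect at -2.54 ± 0.51 on the log2 scale (adjusted p = 0.000774), and this held in 28 of 28 alternatives, while the LZ effect was called lower for 23.1% of all genes and higher for 15.1%. The difference of the PreL effect from the SPG effect was -2.35 ± 0.48 (adjusted p = 0.0441), where 0.111% of genes were called lower and 0.251% higher, but this call held in only 10 of 28 alternatives and was lost without the third SKO PreL library (adjusted p = 0.0507). No other of the 10 genes passed either test. *Cd74* was at -2.83 ± 1.13 (adjusted p = 0.0554) for LZ against PreL, and passed without the third SKO PreL library (-3.31, adjusted p = 0.0321). *C1qc* was at 2.25 ± 0.95 (adjusted p = 0.0687) for the same difference. For PreL against SPG, *Mrc1* was at -3.43 ± 1.17 (adjusted p = 0.189) and *H2-Aa* at -3.11 ± 0.99 (adjusted p = 0.157). Without rescaling, calls over all genes went from 34 higher and 15 lower to 5938 and 147 for PreL against SPG, and from 2040 and 3122 to 749 and 6575 for LZ against PreL, or to 1144 and 4884 with values scaled to RPM. The comparisons of neighbouring stages share the PreL libraries.

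Levels of different genes were compared per length, as RPM per kilobase of all annotated exons of the gene (RPKM). For *H2-Ab1* these exons cover 2568 bases, while its longest transcript has 1212. For *Lyz2* both lengths are 1316 bases. The place of *H2-Ab1* in the order, also against *Lyz2*, thus depends on the length used, and per transcript it would be higher. *Lyz2* was the most abundant of the 10 in SKO SPG at 28.1 ± 13.5 RPKM (SD, n = 3), followed by *H2-Ab1* at 19.2 ± 4.85 and *Cd74* at 14.8 ± 0.18, and *Csf1r* was the least abundant at 2.33. *H2-Ab1* was the most abundant in PreL of both genotypes, at 5.78 RPKM in WT and 16.7 in SKO, and in WT LZ, at 8.53 ± 0.17 (n = 2), where *C1qc* was at 0.02. In SKO LZ the order changed, with *Lyz2* at 6.63 RPKM, *C1qb* at 4.48 and *H2-Ab1* at 3.10.

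Few neighbours in the order of the 6 group means of a gene were separated in all their libraries. *H2-Ab1* had the most such steps: SKO PreL lay above WT LZ, WT LZ above WT PreL, and WT PreL above SKO LZ, while SKO SPG and SKO PreL overlapped, as did SKO LZ and WT SPG. *Cd74* was apart between SKO SPG and SKO PreL and between SKO PreL and WT PreL. *H2-Eb1* and *C1qa* were apart between SKO SPG and SKO PreL, *Lyz2* between WT PreL and WT LZ, *C1qc* between WT PreL and WT SPG, and *Mrc1* between SKO LZ and WT PreL. All other neighbours overlapped, including every step of *H2-Aa*, *Csf1r* and *C1qb*.

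Other genes of macrophages rose in part. Of 22 further macrophage receptors and surface proteins, 10 of the 19 tested rose in SKO SPG, 3 of 14 rose and 1 fell in PreL, and 4 of 7 rose and 1 fell in LZ, where 3.95%, 5.32% and 13.4% of all genes were called higher and 2.06%, 5.83% and 25.8% lower. Of those tested, 9 in SPG, 3 in PreL and 2 in LZ passed the read filter only through their SKO libraries, so the counts are a description. Without the third SKO PreL library 6 of 14 rose in PreL and 1 fell. *Fcgr2b*, the inhibitory receptor for IgG, rose in SPG (3.42 ± 0.53, adjusted p = 0.0015), as did *Folr2*, a folate receptor of resident macrophages, which had no read in the WT SPG libraries and 70, 116 and 53 in SKO, at least 30.5-fold higher against a floor of 3 reads per library. *Trem2*, a lipid receptor, was likewise at 0 in WT SPG and had 22, 49 and 50 reads in SKO, at least 15.0-fold higher. In PreL *Fcer1g* (2.07 ± 0.31, adjusted p = 0.00286) and *Tyrobp* (1.56) rose, both adaptors of activating receptors, and the scavenger receptor *Cd163* fell by 1.02 (adjusted p = 0.0064). Without the third SKO library these values were 2.25, 1.56 and -1.07, and all passed. In LZ *Tyrobp* rose by 3.62 ± 0.40 (adjusted p = 0.000291) and *Cd163* by 3.54 ± 0.31 (adjusted p = 0.000104), with 144 and 190 reads in WT and 776, 718 and 727 in SKO, whereas the IgG receptor *Fcgr3* fell by 3.14 ± 0.63 (adjusted p = 0.00472), from 212 and 284 reads to 3, 14 and 19. *Emr1* (F4/80, now *Adgre1*) and *Cd68*, named here after their values were seen as defining macrophage markers, had few reads. *Emr1* had at most 62 reads in any library, and *Cd68* at most 92. In SPG *Emr1* had no read in WT and 1 to 36 in SKO, with a mean at least 7.3-fold higher against the floor of 3 reads. Without the third SKO PreL library, *Emr1* rose in PreL by 2.23 in limma (adjusted p = 0.0174). *Cd68*, at 0.90 (adjusted p = 0.224), did not pass there. In WT SPG *Emr1*, *Fcgr1*, *Trem2*, *Marco*, *Folr2* and *Lyve1* were at 0 in all 3 libraries, and in WT LZ *Trem2*, *Timd4*, *Clec7a* and *Ms4a7* were at 0 in both.

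Of 7 transcription factors and growth factors of the lineage, 3 of 5 tested rose in SPG, 1 of 4 in PreL (4 of 4 without the third SKO library) and 2 of 4 in LZ, against the same shares of all genes. Of the genes tested, 2, 2 and 1 passed the filter only through SKO. With all libraries in PreL, edgeR called 2 of 4 and DESeq2 3 of 4, and in SPG both called 2 of 5. *Csf1*, a ligand of CSF1R, had 3, 0 and 1 reads in WT SPG and 93, 55 and 36 in SKO SPG (2.80 ± 0.55, adjusted p = 0.00594). *Irf8*, a factor of monocytes and macrophages, rose at every stage, by 2.20 in SPG, 2.28 in PreL (2.73 without the third SKO library) and 2.62 in LZ, and *Maf* rose in SPG (2.25) and LZ (4.21). *Sfpi1*, which encodes PU.1 and is named after its values were seen, had at most 12 reads in any library, and the other ligand gene *Il34* at most 5.

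In the class II pathway beyond the 4 genes above, 3 of 8 tested genes of 14 listed rose in SPG, against 3.95% of all genes, 1 of 8 in PreL, against 5.32%, and in LZ 2 of 9 rose and 1 fell, against 13.4% and 25.8%. In PreL edgeR called 0 of 8, and limma called 2 of 8 without the third SKO library. *H2-DMa*, a chain of the peptide exchange factor, rose in SPG by 2.35 ± 0.52 (adjusted p = 0.0113), with the invariant chain protease gene *Ctss* by 2.11 (adjusted p = 0.016) and the thiol reductase gene *Ifi30* by 1.10 (adjusted p = 0.00997). In LZ *Ctss* rose by 3.35 (adjusted p = 0.0201). *H2-DMb1*, the partner chain of *H2-DMa*, had 66 and 123 reads in WT LZ, 0, 3 and 3 in SKO LZ and at most 31 in every other library, and fell in SKO LZ by 3.81 ± 0.70 (adjusted p = 0.00317). In WT it rose from PreL to LZ by 3.21 ± 0.64 (adjusted p = 0.000631), and WT LZ was its highest group, unlike *H2-Ab1*, whose WT LZ mean lay below those of SKO SPG and SKO PreL. Its neighbour *H2-DMb2*, close in sequence, had at most 4 reads anywhere. *Rfxank*, a subunit of the RFX complex at class II promoters, rose in LZ by 3.89 ± 0.27 (adjusted p = 5.56e-05), with 484 and 304 reads in WT and 2474, 2304 and 1789 in SKO, but an exon overlaps *Nr2c2ap* on the other strand. *Ciita*, the class II transactivator, named after its values were seen, had at most 13 reads in any library.

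MHC class I and complement genes rose in part. Of 9 class I genes 2 of 8 tested rose in SPG, 4 of 8 in PreL, with or without the third SKO library, and 2 of 7 in LZ, and none fell, where 3.95%, 5.32% and 13.4% of all genes were called higher. Of the class I genes tested, 1 in SPG and 3 in PreL passed the read filter only through SKO. *B2m*, the light chain shared by class I molecules, rose at all stages, by 1.63 ± 0.21 in SPG (adjusted p = 0.000529), 2.10 ± 0.20 in PreL (adjusted p = 0.000215, and 2.29 without the third SKO library) and 1.21 in LZ. Of 12 complement genes other than C1q, 4 of 9 tested rose in SPG, 2 of 9 in PreL (5 of 9 without the third SKO library) and 6 of 8 in LZ, where *Cfb* fell by 1.86. With all libraries in PreL, edgeR called 3 of 9 and DESeq2 5 of 9, and in SPG both called 3 of 9. Of those tested, 2, 3 and 3 passed the filter only through SKO. *C1s*, the protease that C1q activates through C1r, rose by 3.77 in SPG, 3.39 in PreL (4.22 without the third SKO library) and 3.55 in LZ.

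Genes of other cell types also differed between the genotypes in part, not always in the way of the 10 genes. Of 7 pan-leukocyte genes 4 rose in SPG, 5 in PreL (4 without the third SKO library) and 6 in LZ, against 3.95%, 5.32% and 13.4% of all genes, and *Ptprc* (CD45) had 139, 166 and 154 reads in WT SPG and 523, 480 and 549 in SKO SPG (1.85 ± 0.24, adjusted p = 0.000481). The pan-leukocyte genes summed to 66.3 to 98.3 RPM in WT SPG and 158 to 249 in SKO SPG, 31.5 to 47.8 and 83.7 to 114 in PreL, and 10.8 to 11.0 and 45.8 to 59.0 in LZ. In LZ 3 of the 7 genes passed the read filter only through SKO. T cell markers rose for 1 of 8 genes in SPG (*Cd2*, 2.51), 4 of 7 tested in PreL (2 without the third SKO library, and 1 in edgeR) and 0 of 4 in LZ by limma (1 at an unadjusted p under 0.05, and 0 calls in edgeR and DESeq2), with sums of 39.3 to 57.6 and 69.2 to 90.3 RPM in WT and SKO SPG, 8.86 to 11.1 and 32.7 to 51.3 in PreL, and 12.4 to 14.0 and 6.97 to 10.7 in LZ. B cell markers were at most 4.19 RPM in sum outside SKO PreL, where they reached 13.4 to 17.0 and 3 of 3 tested genes rose, with or without the third SKO library and all having passed the filter only through SKO, *Cd79b* by 3.60. Dendritic cell markers were at 1.58 to 3.83 RPM in WT SPG and 7.38 to 19.8 in SKO SPG, without overlap, with 1 of 4 tested genes called higher, and overlapped between genotypes at the other stages, with 2.70 to 4.73 and 3.11 to 8.91 RPM in PreL and 6.73 to 11.4 and 8.08 to 14.6 in LZ. Of the dendritic genes tested, 3 in SPG and 1 in PreL passed the filter only through SKO, as did 1 and 2 of the T cell genes. Neutrophil and monocyte markers were at 30.1 to 76.8 RPM in SKO SPG against 10.3 to 22.5 in WT SPG, and at 59.3 in the third SKO PreL library against 4.01 and 9.67 in the others.

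Markers of the interstitium and of the tubule wall differed between the genotypes in part. Over all genes, 3.95%, 5.32% and 13.4% were called higher in SPG, PreL and LZ, and 2.06%, 5.83% and 25.8% lower. Leydig cell markers were called higher for 5, 6 and 5 of 7 genes in SPG, PreL and LZ by limma, for 2, 6 and 6 in edgeR, and for 7 in PreL without the third SKO library. They summed to 5.61 to 15.5 RPM in WT SPG and 62.5 to 225 in SKO SPG, and to 20.9 and 57.3 in WT LZ and 79.1 to 230 in SKO LZ. In SPG 2 Leydig genes passed the read filter only through SKO, and in PreL 3. For stromal and Sertoli genes it was 1 each at both of these stages. The counts are thus a description. *Cyp17a1*, a steroidogenic enzyme, rose by 4.28 in SPG. Stromal markers were called for 6 of 6 genes in SPG, 4 of 5 in PreL (5 without the third SKO library) and 4 of 5 in LZ by limma, and for 4, 1 and 4 in edgeR, with sums of 2.42 to 53.5 RPM in WT SPG and 293 to 572 in SKO SPG, and the matrix gene *Dcn* rose by 4.78. Of the Sertoli cell markers, 1 of 6, 2 of 7 and 1 of 7 tested genes were called higher by limma. In PreL limma called 7 of 7 without the third SKO library, and edgeR and DESeq2 each called 6 of 7 with all libraries. Sertoli markers summed to at most 41.9 RPM in WT SPG and 53.2 to 91.1 in SKO SPG. In PreL they summed to 80.0 to 87.0 RPM in WT and 71.9, 834 and 1042 in SKO, and in LZ the SKO libraries (553 to 727) lay within the WT range (297 and 1384). In the third SKO PreL library, which had the fewest SKO PreL reads of each of the 10 genes, Leydig and Sertoli markers were both low. Myoid markers (at most 65.4 RPM) and endothelial markers (at most 16.9 RPM) reached their highest sums in SKO SPG, and 1 myoid gene was called lower and none higher in PreL and in LZ (1 higher in PreL without the third SKO library). The part that other cells in the sorts had in the values of the 10 genes was not tested.

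**Figure D4:**
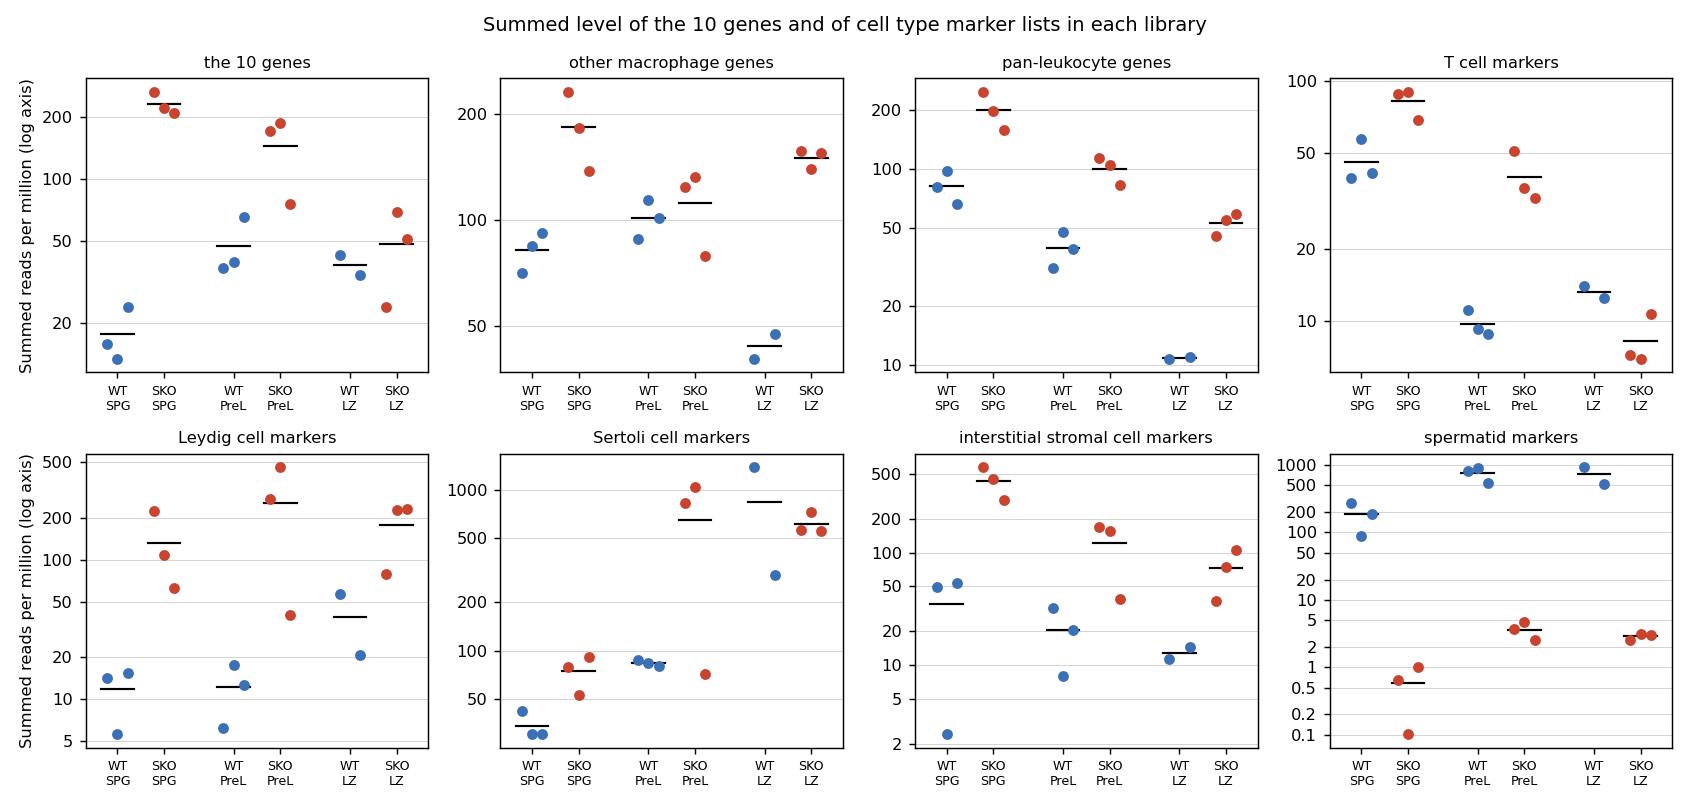
Summed RPM in each of the 17 libraries for the 10 genes, other macrophage genes, pan-leukocyte genes, T cell, Leydig, Sertoli and stromal markers and spermatid markers, on log axes. In SPG the SKO libraries lie above the WT libraries in every panel except that of spermatid markers, which lie at 4.61 RPM or less in all SKO libraries.

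Within groups, the class II genes varied together, and so did the C1q genes. Group means were removed from the log2 values, and the deviations of the 17 libraries were correlated as a description, since libraries share cell mixtures and depth. The highest Pearson's r was between *H2-Aa* and *H2-Eb1* (0.852), followed by *Cd74* with *H2-Aa* (0.825) and with *H2-Eb1* (0.794). *H2-Ab1* went less with these 3 genes (0.549 to 0.649), and the C1q genes correlated with each other at 0.592 to 0.666. *Lyz2* went most with *C1qc* (0.700). Over all 45 pairs the median was 0.272, 37 were above 0, and the lowest was that of *H2-Ab1* with *Csf1r* (-0.480). Against the mean of the other 9 genes, *C1qb* (0.740), *Cd74* (0.694) and *H2-Eb1* (0.680) were the most alike, and *H2-Ab1* (0.183) and *Mrc1* (0.156) the least. Of 10248 genes that were not among the 10 and had a mean of at least 50 reads, the most like their mean were *Lsm10* (0.903), *Sugt1* (0.875), *Coq10a* (0.852), *Me1* (0.849), *Emp3* (0.836), *Ctsc* (0.831), *Atpif1* (0.826) and *Atp5l* (0.823).

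**Figure D5:**
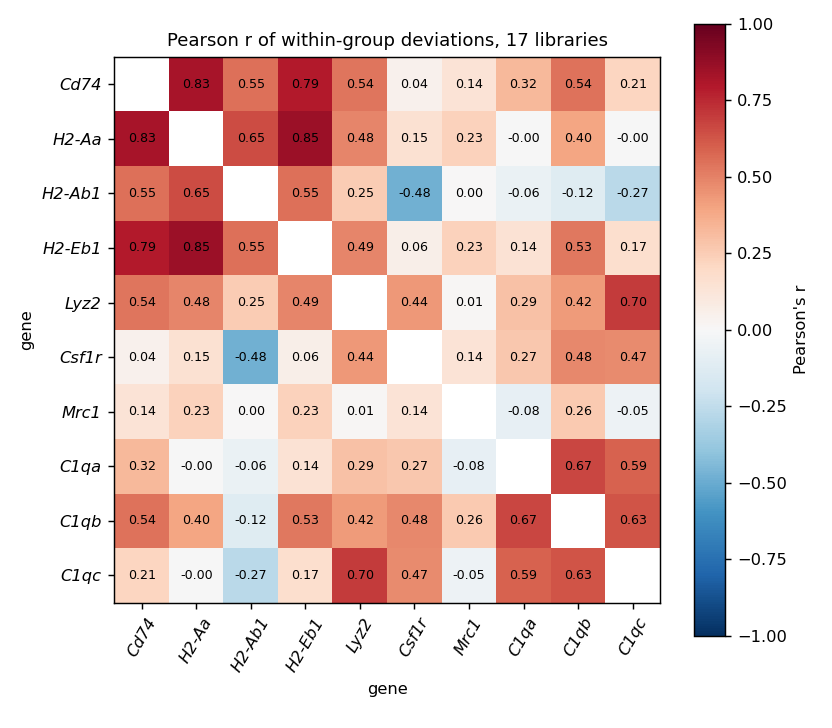
Heatmap of Pearson's r between each pair of the 10 genes over the 17 libraries, computed on log2 values from which the mean of each genotype and stage was removed. *Cd74*, *H2-Aa* and *H2-Eb1* form the darkest block, with r from 0.794 to 0.852, *H2-Ab1* is blue against *Csf1r* (-0.480), and *Mrc1* is pale against all others.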

How the data were processed

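The authors trimmed reads, mapped them to mm10, assigned the uniquely mapped ones to genes with HTSeq 0.11.2, and calibrated these counts by ERCC spike-in and by cell input. The submitters' processing notes also list TopHat2 2.1.1, Cufflinks 2.2.1 and mm9. The deposited signal values are whole reads times 1 calibration factor per library: within a tolerance of 0.05, 100% of the values gave whole reads after division by that factor. The table holds 0 ERCC rows and 0 columns of other samples. Libraries were grouped by their labels.

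Values were rescaled by size factors (median of ratios) computed for each fit, genes under a mean of 10 recovered reads were dropped, and limma 3.58.1 (mean-variance trend, R 4.3.3) tested log2(rescaled value + 10), with Benjamini-Hochberg adjustment over all genes tested. Fold changes are on this scale, which understates changes of low genes. The added constant weighs less in LZ, where rescaled values are larger per RPM. *H2-Ab1* was at 1030 for 21.9 RPM in WT LZ and at 632 for 49.3 RPM in SKO SPG. Changes of low genes are thus understated less in LZ, and fold changes of the separate stage fits are not directly comparable. Calls needed an adjusted p under 0.05 and a log2 fold change beyond 1 in either direction (interactions: adjusted p alone), the thresholds of the study, which used DESeq2. Genotype comparisons used the libraries of a stage, and stage comparisons and interactions 1 fit of all 17. The study calls the replicates biological, but the sources used here do not say that they came from separate animals, so p-values measure the spread between these libraries. No pair of replicates agreed within sampling noise. RPM, also per kilobase of GENCODE M21 exon, used the recovered reads. Reads carried no molecular identifiers.

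The members and gene lists were chosen with earlier results of these data known. Named genes were the 10, *Nat10*, *Lyz1*, at most 4 genes per list and comparison (called, largest change, no overlap), and the 8 genes most like the mean of the 10. Alternatives were other scalings (none, TMM, RPM), a pseudocount of 1 or 50, a filter at 50 reads or none, edgeR 4.0.16, DESeq2 1.42.0, a replicate block, and each library left out. Summing *Lyz1* and *Lyz2* was chosen after seeing the data. The tests were tried on simulated data. Intervals and floors of 3 reads cover counting error only.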

Additional observations from a re-analysis of the deposited data

Results flagged for a closer look

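The genotype effect on *H2-Ab1* differed between stages by an interaction term in limma, which singled it out among the 10 genes. Its LZ effect was lower than its PreL effect (difference -2.54 on the log2 scale), with 205, 118 and 153 reads in WT PreL, 497, 520 and 428 in SKO PreL, 307 and 295 in WT LZ and 30, 71 and 65 in SKO LZ, so that SKO was above WT in PreL and below it in LZ. The SKO LZ libraries were shallower, and the LZ means were 21.9 RPM in WT and 7.96 in SKO. Over all genes, this interaction was called lower for 23.1% and higher for 15.1%. The LZ effect was between -0.89 and -1.33 with a library left out, and its call was lost without SKO replicate 1 or SKO replicate 2. The PreL effect was also lower than the SPG effect (difference -2.35), with SKO above WT in both stages, but this call held in 10 of 28 alternatives and was lost without SKO PreL replicate 3 (adjusted p = 0.0507).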

How the results depend on the processing

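The number of the 10 genes called higher in SPG, 9, stayed between 8 and 10 under all 18 alternatives. The number of the 10 genes called higher in PreL, 3, became 8 when ERCC-calibrated values were not rescaled, where the median of all genes moved to 0.729, and ranged from 1 to 4 with a library left out. In LZ the 5 higher calls became 3 without a read filter and 0 at a mean of 50 reads, where only 2 of the genes were tested, and 2 to 5 with a library left out, and the 1 lower call 0 to 1. Not rescaling moved the median of all genes to -0.252 in SPG, -0.251 in LZ, 1.80 for WT PreL to LZ, and in SKO 0.984 for SPG to PreL and 0.762 for PreL to LZ. RPM scaling moved it to -0.451 in LZ.

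For WT SPG to PreL the 3 higher calls became 1 without rescaling, at a pseudocount of 50, without a filter and in edgeR, and 1 to 3 with a library left out. For WT PreL to LZ, 2 genes were called higher without rescaling and 0 to 1 with a library left out, against 0, and the 3 lower calls became 5 in DESeq2 and 1 to 4. For SKO SPG to PreL, 1 gene was lower at a pseudocount of 50, against 0. For SKO PreL to LZ the 2 lower calls became 4 under RPM scaling, and 2 to 4. The median correlation within groups, 0.272, ranged from 0.219 to 0.413 with a library left out and reached 0.454 without rescaling. Of the interactions, the 1 lower PreL call became 0 under RPM scaling, a pseudocount of 1, no filter and edgeR, and 0 to 1, and for LZ the higher calls (0) became 1 without rescaling and in edgeR, 2 at a pseudocount of 1 and in DESeq2, and 0 to 2, and the lower call (1) became 2 without rescaling, under TMM or RPM scaling and at a pseudocount of 50, and 1 to 2. The cause was not tested.

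Directions turned for *Cd74* in LZ (0.16 without SKO replicate 1, down to -2.53 without WT replicate 2), *H2-Eb1* in LZ (-0.0055 without rescaling, -0.23 without WT replicate 2, -0.80 without SKO replicate 2, up to 0.84 without SKO replicate 1), *Mrc1* in LZ (-0.30 without WT replicate 3, up to 1.84 without WT replicate 2) and *H2-Ab1* from SPG to PreL in SKO (0.86 without rescaling).

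The sources used here do not say what libraries with the same replicate number share. The deviations of same-numbered libraries of a stage correlated at -0.0527 to 0.11 (median 0.080). Differently numbered libraries of a stage correlated at -0.0988 to 0.0578 (median -0.014). Same-numbered libraries that differed in stage and genotype correlated at -0.0776 to 0.422 (median -0.027). Whether they share a batch was not tested. With the replicate number as a block, 8 genes were called higher in PreL, 0 lower in LZ, 1 higher from WT SPG to PreL and 0 in the PreL interaction, and *Cd74* in LZ was at 0.15. Low counts limit the LZ values: several genes had fewer than 10 reads in a library, also in the deeper WT libraries.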
